A study of Mus musculus with 24 samples.

Results

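The 9 transcripts described here encode molecules with which leukocytes hold on to vessel walls and stroma, namely Vcam1, Icam1, Icam2, Madcam1, Sele, Selp, Itga4, Itgal and Itgb2. They were taken by gene symbol from the 55288 genes of the count and FPKM tables, and were chosen by earlier results in which the RNA levels of Vcam1 and its partners had been seen, so the values below are a description. The symbols alone decide membership, with no threshold. The lines under study, D2.1 and D2A1, are mouse mammary tumor lines of BALB/c origin, derived from hyperplastic alveolar nodules, of which D2.1 is slow to grow out and D2A1 proliferates rapidly. RNA-seq was performed on 24 libraries in 6 groups. Cultured D2.1 and D2A1 cells gave 3 libraries each, each line gave 4 tumors from BALB/c and 5 from SCID-beige hosts. Tumors came from the mammary fat pad of female mice after injection of 1000000 cells, and were taken at about 500 mm3. Mice used for tumor studies were 8 to 12 weeks old, and their age at collection is not given. Collection went by volume, so time in the host may differ between the lines, which was not tested. BALB/c mice are immunocompetent, whereas SCID-beige mice lack T and B cells and have defective NK cells but keep macrophages, neutrophils and endothelium. Whole tumors were sequenced, so fewer cells of a type and less RNA per cell cannot be told apart.

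Leukocytes leave the blood in steps. Selectins on activated endothelium, and P-selectin also on platelets, slow the cells, after which leukocyte integrins bind ligands of the immunoglobulin superfamily on the vessel wall. VCAM1 and MADCAM1 are bound by integrins that hold the alpha 4 chain, and ICAM1 and ICAM2 by LFA-1, the pair of the alpha L and beta 2 chains. VCAM1 and ICAM1 are induced by inflammatory cytokines through NF-kappaB in endothelium, fibroblasts and some epithelial cells.

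The promoters of Icam1 and Selp are shown because these members stood at opposite ends in culture, Selp being read almost only in D2A1 cells and Icam1 mostly in D2.1 cells. Of the 9 members 5 had a promoter in the RefSeq table on GRCm38.p6, which were Icam1, Madcam1, Sele, Selp and Itga4. The 250 bases before the start site lie at chr9:21015690-21015939 for Icam1 and at chr1:164115014-164115263 for Selp, both on the + strand. Capitals mark matches, on either strand, to the RelA consensus or to the letters TTCNNNGAA.
Icam1: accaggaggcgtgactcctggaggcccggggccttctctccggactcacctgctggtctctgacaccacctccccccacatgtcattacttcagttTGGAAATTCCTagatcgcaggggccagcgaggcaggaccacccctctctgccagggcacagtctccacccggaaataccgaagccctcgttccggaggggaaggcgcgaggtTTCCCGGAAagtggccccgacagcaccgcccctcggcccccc
Selp: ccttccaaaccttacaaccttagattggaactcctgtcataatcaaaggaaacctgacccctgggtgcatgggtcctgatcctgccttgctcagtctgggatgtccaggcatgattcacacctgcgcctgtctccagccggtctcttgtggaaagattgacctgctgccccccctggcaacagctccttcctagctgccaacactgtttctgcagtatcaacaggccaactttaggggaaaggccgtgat
The Icam1 promoter held 2 overlapping RelA consensus matches, from 154 to 145 and from 153 to 144 bases before the start, and TTCNNNGAA from 42 to 34 bases before it. The Sele promoter held TTCNNNGAA from 140 to 132 bases before the start, and no match to either lay in the windows of Madcam1, Selp and Itga4. Of 32851 promoters of this length, 6.94% held the RelA consensus, 7.02% TTCNNNGAA and 0.530% both.

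Library totals ran from 16837260 to 24818234 counts in culture and from 13566949 to 18355153 in tumors, so that a floor of 3 counts stood at 0.121 to 0.178 CPM (counts scaled to 1000000 per library by TMM within each table) and at 0.163 to 0.221 CPM. Pan-leukocyte markers summed to 0.653 to 1.64 CPM in the 6 culture libraries and to 476 to 1291 CPM in the 18 tumors, and all 12 endothelial markers were read in every group of tumors. Endothelial markers summed to 164 to 275 CPM in D2.1 tumors and to 389 to 494 CPM in D2A1 tumors. In culture they summed to 136 to 164 CPM in D2.1 and 24.9 to 36.9 CPM in D2A1 cells, most of it from Flt1. Of the 4 D2.1 tumors in BALB/c mice, replicate 1 held milk protein transcripts at 391 CPM. Replicate 4 held skin keratinocyte markers at 161 CPM, and markers of high endothelial venules and lymph node stroma at 78.0 CPM. Of this last sum Glycam1 gave 59.6 CPM, while Ccl19 and Ccl21a had 0 reads. The calls that rest on these replicates are given with and without both, an alternative added after seeing the data. Cultured and tumor libraries were tabulated separately and are set side by side below with no test.

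**Figure D1:**
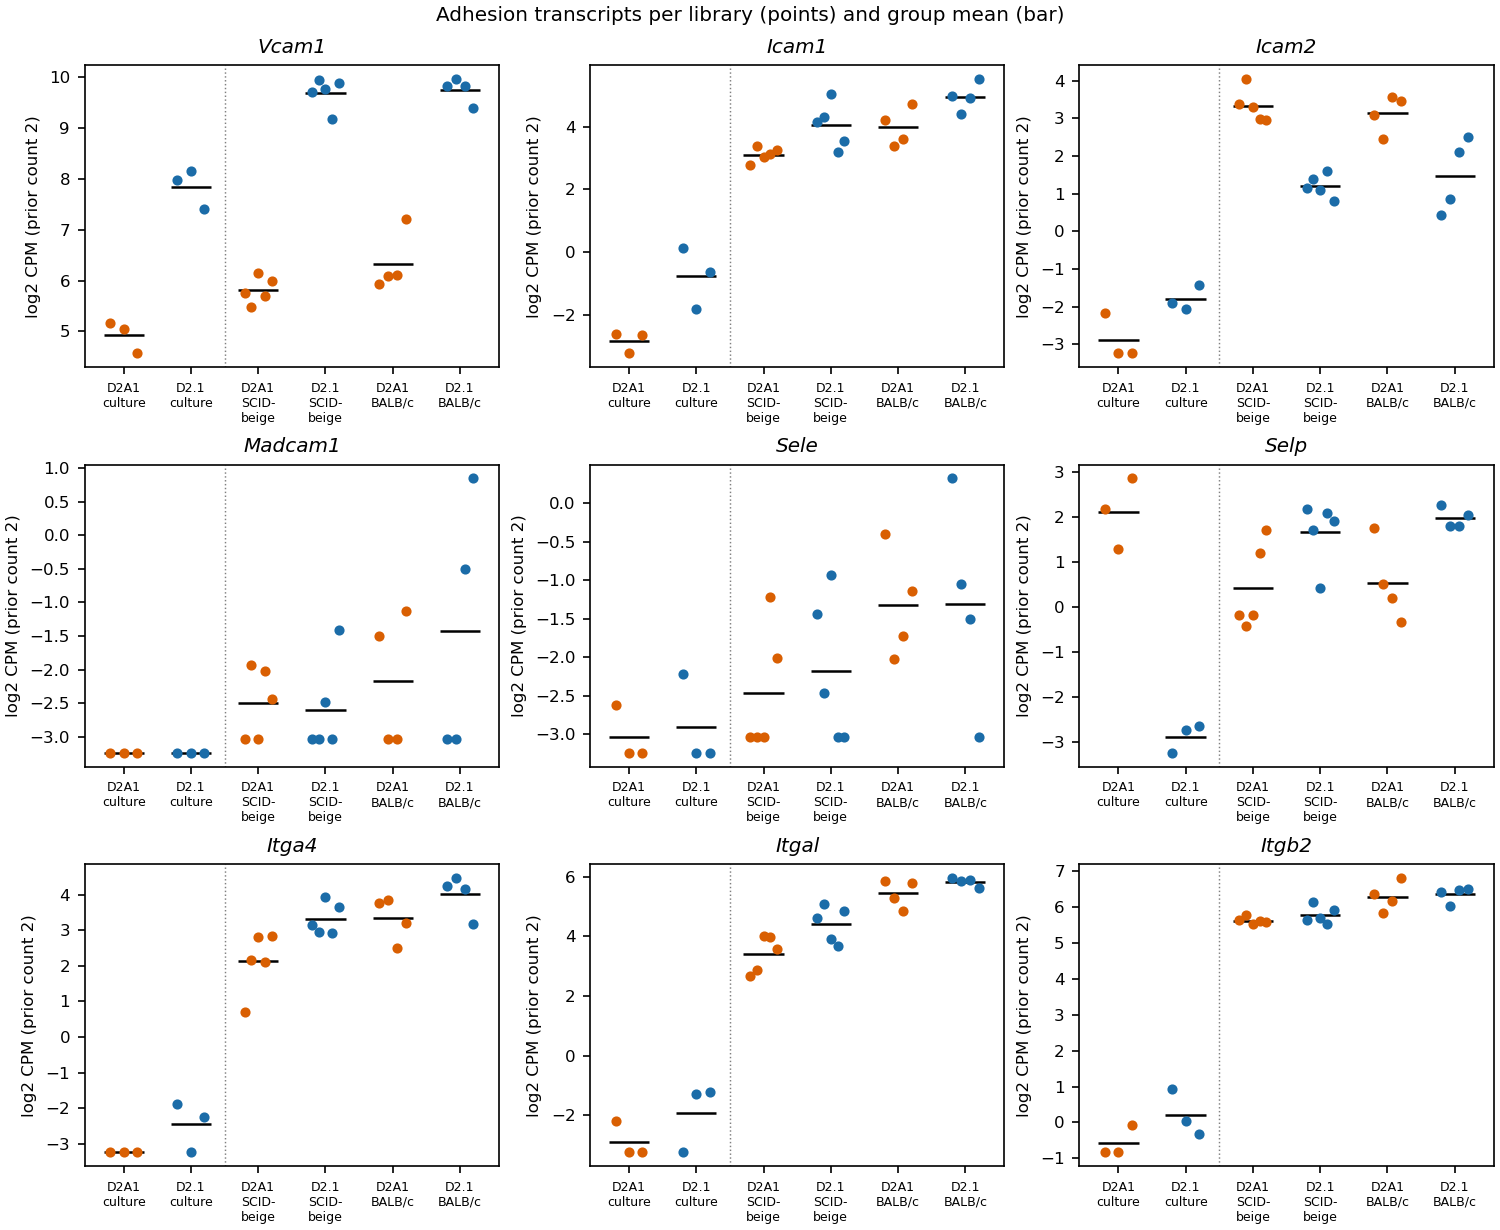
The log2 CPM (y axis, prior count 2) of each member is plotted for each library (points) in the 6 groups (x axis), with the group mean as a bar, D2A1 in orange and D2.1 in blue. Vcam1 separated the lines in culture and in both hosts, Icam2 stood the other way in tumors, and Selp was high in D2A1 culture but not in D2.1 culture.

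Vcam1 (ENSMUSG00000027962, chr3:116109949-116129688 on GRCm38, - strand), a ligand of alpha 4 integrins, had the highest FPKM of the 9 members in both culture groups and both D2.1 tumor groups, and stood second to Itgb2 in both D2A1 tumor groups. In culture it was at 252, 287 and 170 CPM in D2.1 cells and at 35.8, 33.1 and 23.6 CPM in D2A1 cells. All D2.1 libraries lay above all D2A1 libraries. The log2 fold change was 2.94 ± 0.24 (SE, n = 3 and 3, edgeR adjusted p = 2.18e-05), a 7.66-fold difference. In BALB/c mice, Vcam1 was at 905, 1003, 907 and 672 CPM in D2.1 tumors and at 61.2, 67.8, 68.5 and 148 CPM in D2A1 tumors. The groups did not overlap, and D2A1 replicate 4 stood at more than the other D2A1 tumors. The log2 fold change was 3.34 ± 0.30 (SE, n = 4 and 4, edgeR adjusted p = 2.41e-05), 3.73 without that D2A1 replicate 4 and 3.46 without D2.1 replicates 1 and 4 (edgeR adjusted p = 0.000402). In SCID-beige mice, Vcam1 was at 840, 991, 875, 578.2 and 950 CPM in D2.1 tumors and at 53.6, 44.5, 71.1, 51.6 and 63.2 CPM in D2A1 tumors. Again no library of one line reached the range of the other, with a log2 fold change of 3.90 ± 0.20 (SE, n = 5 and 5, edgeR adjusted p = 2.06e-08). Host made no difference past the threshold in D2.1 tumors (log2 fold change 0.07 ± 0.18, edgeR adjusted p = 0.957) or in D2A1 tumors (0.61 ± 0.26, edgeR adjusted p = 0.442). The D2A1 value fell to 0.18 without BALB/c replicate 4.

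Vcam1 did not run with the endothelial markers, whose mean was lower in D2.1 than in D2A1 tumors by a log2 difference of -1.08 in BALB/c mice and of -1.61 in SCID-beige mice. Relative to these markers, the log2 level of Vcam1 was 6.14 ± 0.48 in D2.1 and 1.64 ± 0.62 in D2A1 tumors of BALB/c mice (SD, n = 4 and 4). In SCID-beige mice it was 6.53 ± 0.42 and 1.03 ± 0.25 (SD, n = 5 and 5). Over the members 28 such relations were computed, and after Benjamini-Hochberg adjustment of their exact permutation tests 0 passed 0.05 (10 at an unadjusted p under 0.05), so these levels are a description. The exact test can give no p below 0.0286 with 4 and 4 tumors or 0.00794 with 5 and 5. With 4 and 5 tumors the limit is 0.0159. No relation could therefore pass the adjustment alone, and Vcam1 stood at the limit between lines in both hosts. In culture 1 endothelial marker stood out, the VEGF receptor Flt1 at 131 to 159 CPM in D2.1 and 20.8 to 34.4 CPM in D2A1 cells, while 3 of the 12 markers reached a mean of 1 CPM in D2.1 cells and Erg had no reads there. Flt1 was kept in the marker mean above, and differed by -0.10 between lines in SCID-beige tumors (edgeR adjusted p = 0.714). The fibroblast collagen gene Col1a1 was at 1761 to 2544 CPM in cultured D2.1 and 66.0 to 93.6 CPM in D2A1 cells, and made up most of the pericyte and fibroblast sum in D2.1 tumors of both hosts. Of the 8 pericyte and fibroblast markers, 5 were higher and 1 lower between lines in BALB/c tumors, where 32.6% of all genes were called. In SCID-beige tumors 4 were higher and 1 lower, where 32.1% of all genes were called. Col1a1 differed by 2.17 ± 0.24 and 1.65 ± 0.26 (edgeR adjusted p = 9.54e-05 and 0.000308), and the pericyte proteoglycan Cspg4 by -1.997 ± 0.40 and -2.65 ± 0.52 (edgeR adjusted p = 0.00375 and 0.0015). Dcn and Lum had at most 2 reads in any culture library. In BALB/c mice their means were 317 and 190 CPM in D2.1 and 39.3 and 21.5 CPM in D2A1 tumors. In SCID-beige mice they differed by 3.47 and 2.95 (edgeR adjusted p = 2.51e-06 and 5.86e-05), while Col1a2 ran the other way, at -1.22 (edgeR adjusted p = 0.111). The part of these cells in the Vcam1 difference was not tested.

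Icam1 (ENSMUSG00000037405, chr9:21015985-21028817, + strand), the main ligand of LFA-1, had 18, 4 and 10 reads in cultured D2.1 cells and 1, 0 and 1 in D2A1 cells. The ranges did not overlap, and the pooled counts of 32 and 2 gave a ratio of 13.1 (95% exact interval 3.35 to 113, counting error only). Icam1 failed the expression filter in culture and was not tested there. In BALB/c mice it was at 31.3, 20.9, 30.3 and 45.8 CPM in D2.1 tumors and at 18.6, 10.3, 12.1 and 26.4 CPM in D2A1 tumors. The lowest D2.1 tumor fell within the D2A1 range, and the log2 fold change of 0.93 ± 0.33 (SE, n = 4 and 4) had an edgeR adjusted p of 0.0516. Without D2.1 replicates 1 and 4 it was 0.59 (edgeR adjusted p = 0.331). With the replicate number as a block it was 0.97 (edgeR adjusted p = 0.00065), and whether the numbers pair these tumors depends on the genes used (a lowest same-number correlation of 0.101 over the 14953 genes tested and of 0.0899 over the 16036 genes kept in all tumors, against a limit of 0.1). In SCID-beige mice Icam1 was at 17.4, 19.8, 32.8, 8.96 and 11.5 CPM in D2.1 tumors and at 6.74, 10.2, 8.02, 8.54 and 9.46 CPM in D2A1 tumors. Only the lowest D2.1 tumor overlapped the D2A1 range, and the log2 fold change was 1.08 ± 0.31 (SE, n = 5 and 5, edgeR adjusted p = 0.0170). Both host comparisons had Icam1 higher in BALB/c tumors in size but short of the threshold, with 0.87 ± 0.34 in D2.1 (edgeR adjusted p = 0.387) and 0.98 ± 0.27 in D2A1 tumors (edgeR adjusted p = 0.134).

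Per length, within the tumor table, the FPKM of Vcam1 was 12.8 to 41.9 times that of Icam1 in BALB/c-hosted D2.1 tumors and 23.4 to 72.5 times in SCID-beige mice. The same FPKM ratio was 2.88 to 5.73 and 3.81 to 7.76 in D2A1 tumors. Every D2.1 tumor therefore lay above every D2A1 tumor in this ratio.

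Icam2 (ENSMUSG00000001029, chr11:106377656-106388075, - strand), a ligand of LFA-1 that resting endothelium and platelets carry, was the member that was lower in D2.1 tumors. Cultured cells had 3, 3 and 5 reads in D2.1 and 2, 0 and 0 in D2A1. Icam2 in BALB/c mice was at 1.23, 1.69, 4.18 and 5.59 CPM in D2.1 tumors and at 8.35, 5.39, 11.8 and 10.8 CPM in D2A1 tumors. D2.1 replicates 3 and 4 were the high ones, and the last reached the D2A1 range. The log2 fold change was -1.52 ± 0.48 (SE, n = 4 and 4, edgeR adjusted p = 0.0336), and the call was lost in 5 of 8 fits that left out 1 library, with an adjusted p of up to 0.0733. Without D2.1 replicates 1 and 4 the change was -1.66 (edgeR adjusted p = 0.0462). In SCID-beige mice it was at 2.09, 2.52, 2.02, 2.93 and 1.64 CPM in D2.1 tumors and at 10.4, 16.4, 9.70, 7.86 and 7.70 CPM in D2A1 tumors. The groups were apart, with a log2 fold change of -2.21 ± 0.29 (SE, n = 5 and 5, edgeR adjusted p = 7.40e-05). Relative to endothelial markers the line difference in Icam2 was -0.59 in BALB/c mice (n = 4 and 4) and -0.52 in SCID-beige mice (n = 5 and 5). Deviations of Icam2 from its group mean followed the GC slope (how steeply the log2 levels of a library rise with the GC content of genes) with r = 0.71 over 18 tumors, as a description. Host gave log2 fold changes of 0.53 ± 0.47 in D2.1 (edgeR adjusted p = 0.826) and -0.19 ± 0.29 in D2A1 tumors (edgeR adjusted p = 0.933).

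**Figure D2:**
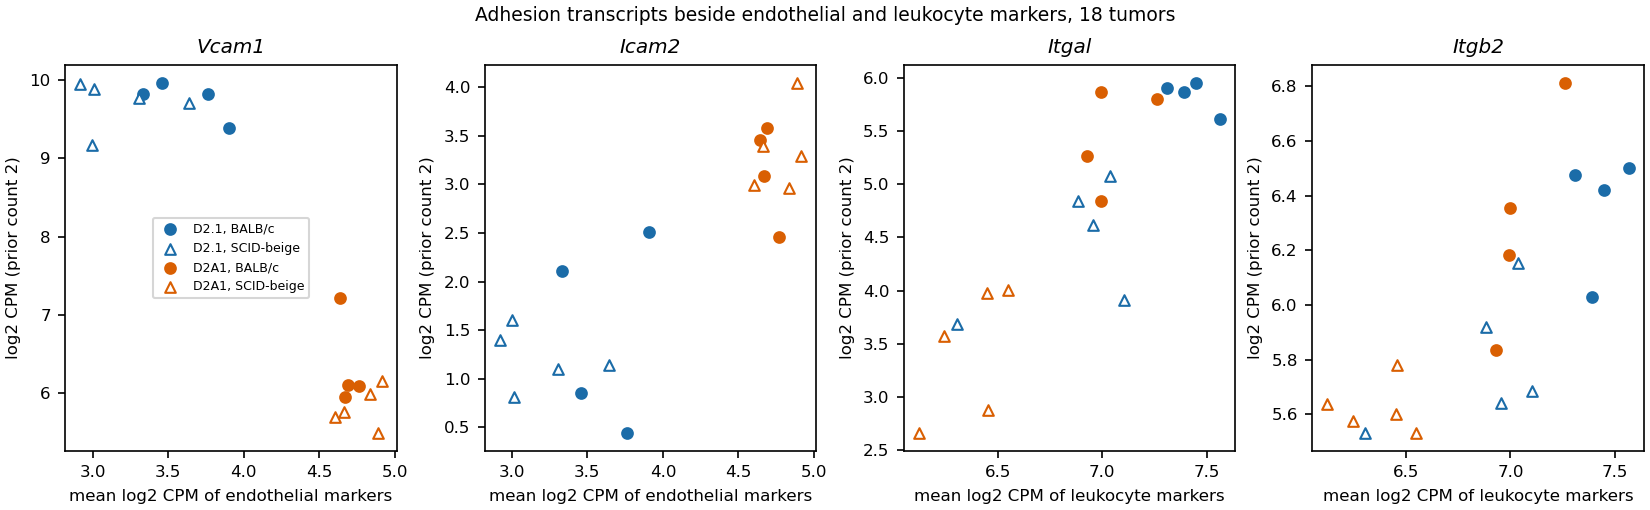
The log2 CPM (y axes, prior count 2) of 4 members is plotted against the mean log2 CPM of endothelial or leukocyte markers (x axes) in 18 tumors, with BALB/c hosts as filled circles and SCID-beige hosts as open triangles. Vcam1 was high where endothelial markers were low, Icam2 was low there, and Itgal and Itgb2 were highest in tumors with high leukocyte markers.

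Madcam1 (ENSMUSG00000020310, chr10:79664559-79668537, + strand), the mucosal and high endothelial ligand of the alpha 4 beta 7 integrin, had 0 reads in all 6 culture libraries. It had in BALB/c mice 0, 0, 10 and 26 reads in D2.1 tumors and 4, 0, 0 and 6 in D2A1 tumors. In SCID-beige mice the counts were 0, 0, 1, 0 and 4 in D2.1 and 0, 2, 0, 2 and 1 in D2A1 tumors. The 26 reads came from the D2.1 replicate whose markers of high endothelial venules and lymph node stroma summed to 78.0 CPM, the highest of the 18 tumors. Glycam1 gave 59.6 CPM of that sum, and Ccl19 and Ccl21a had 0 reads. Madcam1 did not pass the filter in any comparison.

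**Figure D3:**
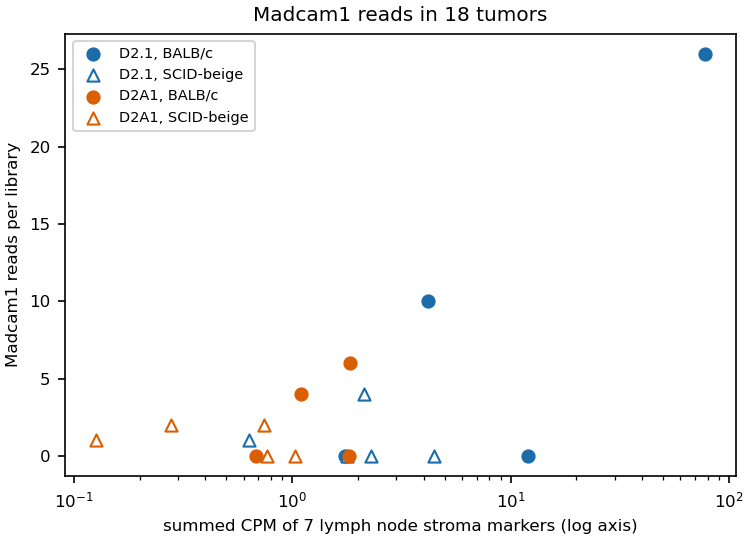
Reads of Madcam1 per library (y axis) are plotted against the summed CPM of 7 markers (x axis, log scale) in 18 tumors. The 7 are markers of high endothelial venules and lymph node stroma, named on the axis by the latter only. D2.1 is in blue, D2A1 in orange, BALB/c hosts are filled and SCID-beige hosts open. The library with 26 reads had the highest marker sum, at 78.0 CPM.

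Selp (ENSMUSG00000026580, chr1:164115264-164150026, + strand) encodes P-selectin of platelets and endothelium. In cultured D2A1 cells it had 77, 41 and 134 reads, or 4.44, 2.33 and 7.14 CPM, while D2.1 cells had 0, 1 and 1 reads. All D2A1 libraries were above all D2.1 libraries (edgeR adjusted p = 0.000112), and the pooled counts of 252 and 2 gave a ratio of 154 (95% exact interval 42.1 to 1275, counting error only). In tumors the values ran the other way. Selp was in BALB/c mice at 4.72, 3.38, 3.37 and 3.99 CPM in D2.1 tumors and at 3.25, 1.30, 1.03 and 0.666 CPM in D2A1 tumors. The ranges did not overlap, but the log2 fold change of 1.31 ± 0.48 (SE, n = 4 and 4) had an edgeR adjusted p of 0.0614, and of 0.0172 with the replicate block, whose pairing is doubtful as given for Icam1. In SCID-beige mice it was at 4.42, 3.17, 1.21, 4.12 and 3.65 CPM in D2.1 tumors and at 0.757, 0.625, 0.767, 2.16 and 3.15 CPM in D2A1 tumors. The groups overlapped through D2.1 replicate 3, with a log2 fold change of 1.14 ± 0.51 (SE, n = 5 and 5, edgeR adjusted p = 0.108). Platelet and megakaryocyte markers summed to 35.0 to 59.2 CPM in D2.1 and 37.9 to 79.7 CPM in D2A1 tumors. In culture the same markers summed to 39.0 to 59.1 CPM in D2.1 and 6.57 to 12.4 CPM in D2A1 cells. Itgb3 gave a mean of 43.4 CPM in cultured D2.1 cells, while Pf4 and Gp9 had 0 reads there. The sum is therefore not a measure of platelets alone. For Selp, host gave log2 fold changes of 0.25 ± 0.39 in D2.1 (edgeR adjusted p = 0.921) and 0.06 ± 0.61 in D2A1 tumors (edgeR adjusted p = 0.993).

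Sele (ENSMUSG00000026582, chr1:164048234-164057677, + strand), the E-selectin of activated endothelium, had at most 2 reads in any culture library. D2.1 tumors held 21, 6, 4 and 0 reads in BALB/c mice and 4, 1, 7, 0 and 0 in SCID-beige mice, and D2A1 tumors held 11, 2, 3 and 6 and then 0, 0, 0, 5 and 2. All groups of tumors overlapped, and Sele passed the filter in no comparison.

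Itgb2 (ENSMUSG00000000290, chr10:77530252-77565708, + strand), the beta chain that all LFA-1 and Mac-1 integrins share, was the highest of the 3 integrin chains per length in each group of tumors. In culture it was at 1.80, 0.929 and 0.697 CPM in D2.1 and 0.461, 0.454 and 0.852 CPM in D2A1 cells, and the groups overlapped (log2 fold change 0.93 ± 0.49, n = 3 and 3, edgeR adjusted p = 0.154). In BALB/c mice it was at 85.6, 65.2, 88.9 and 90.5 CPM in D2.1 tumors and at 81.7, 56.9, 72.5 and 112 CPM in D2A1 tumors. The D2.1 range lay within that of D2A1, and the log2 fold change was 0.04 ± 0.21 (SE, n = 4 and 4, edgeR adjusted p = 0.919). In SCID-beige mice it was at 49.8, 71.1, 51.4, 46.1 and 60.4 CPM in D2.1 tumors and at 49.7, 54.9, 46.1, 48.4 and 47.5 CPM in D2A1 tumors. These overlapped as well (0.18 ± 0.15, n = 5 and 5, edgeR adjusted p = 0.402). BALB/c tumors had the higher mean in both lines, by 0.60 ± 0.17 in D2.1 (edgeR adjusted p = 0.163) and by 0.72 ± 0.18 in D2A1 (edgeR adjusted p = 0.0985), neither past the threshold.

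Itgal (ENSMUSG00000030830, chr7:127296260-127335138, + strand), the alpha chain of LFA-1 on lymphocytes and other leukocytes, was the member called higher in the immunocompetent host. Icam1, Itga4 and Itgb2 were also higher there in both lines, short of the threshold. In D2.1 tumors it was at 61.8, 58.1, 59.6 and 48.9 CPM in BALB/c and at 24.3, 33.7, 14.9, 12.8 and 28.6 CPM in SCID-beige mice. In D2A1 tumors it was at 58.1, 38.4, 28.6 and 55.5 CPM in BALB/c and at 6.19, 7.23, 16.0, 15.6 and 11.8 CPM in SCID-beige mice. In both lines every BALB/c tumor lay above every SCID-beige tumor. The log2 fold change was 1.35 ± 0.27 in D2.1 (SE, n = 4 and 5, edgeR adjusted p = 0.0376) and 1.99 ± 0.32 in D2A1 tumors (SE, n = 4 and 5, edgeR adjusted p = 0.0139). The D2.1 call was lost in 7 of 9 fits that left out 1 library, and without D2.1 replicates 1 and 4 together (1.39, edgeR adjusted p = 0.456). Over all genes the fits with 1 library left out called 26 to 314, and the fit without both replicates 11 of 15672, against 133 in the full fit. The D2A1 call was lost without BALB/c replicate 4 (1.84, edgeR adjusted p = 0.0650), where 27 of 14874 genes were called. Relative to pan-leukocyte markers, whose mean was itself higher in BALB/c mice by 0.57 in D2.1 and by 0.68 in D2A1 tumors, Itgal was higher by 0.83 and by 1.34 (n = 4 and 5), neither past 0.05 after the adjustment over the 28 relations. Both stood at the smallest p that the exact test can give for these sizes, 0.0159, which could not pass alone.

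Between the lines, Itgal differed in SCID-beige mice by 1.01 ± 0.33 (SE, n = 5 and 5, edgeR adjusted p = 0.0297) and in BALB/c mice by 0.34 ± 0.23 (SE, n = 4 and 4, edgeR adjusted p = 0.281). The interaction of line and host was -0.67 ± 0.44 (edgeR adjusted p = 0.736), so the line differences were not shown to differ between hosts. T cell markers in BALB/c mice, by comparison, summed to 112 to 293 CPM in D2.1 and to 11.5 to 34.5 CPM in D2A1 tumors, and all 10 were higher in D2.1 by edgeR. Replicates 2 and 3 alone stood at 112 and 275 CPM, and the fit without replicates 1 and 4 called 10 of 10 as well, where 3350 of 15720 genes were called. Cultured cells held 0, 7 and 6 reads of Itgal in D2.1 and 2, 0 and 0 in D2A1.

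Itga4 (ENSMUSG00000027009, chr2:79255426-79333123, + strand), the alpha chain that binds VCAM1, had 3, 0 and 2 reads in cultured D2.1 cells and 0 in all D2A1 libraries. In BALB/c mice it was at 18.9, 22.0, 17.6 and 8.87 CPM in D2.1 tumors and at 13.5, 14.4, 5.56 and 9.16 CPM in D2A1 tumors. D2.1 replicate 4 fell within the D2A1 range, and the log2 fold change was 0.67 ± 0.35 (SE, n = 4 and 4, edgeR adjusted p = 0.176). In SCID-beige mice it was at 8.72, 7.63, 15.2, 7.40 and 12.5 CPM in D2.1 tumors and at 1.51, 4.38, 6.91, 4.21 and 7.07 CPM in D2A1 tumors. The groups were apart, with a log2 fold change of 1.11 ± 0.37 (SE, n = 5 and 5, edgeR adjusted p = 0.0363), and the call was lost in 6 of 10 fits that left out 1 library. Deviations of Itga4 from its group mean followed the GC slope of the libraries with r = -0.77 over 18 tumors, and with that slope as a covariate the BALB/c difference was 1.10 (edgeR adjusted p = 0.00829). Host gave 0.74 ± 0.30 in D2.1 (edgeR adjusted p = 0.401) and 1.14 ± 0.41 in D2A1 tumors (edgeR adjusted p = 0.288).

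The members' calls stood against a background that differed widely between comparisons. In culture 3 of the 9 members passed the filter and 2 were called, 1 higher and 1 lower in D2.1, where 44.9% of 12489 genes were called (24.2% higher, 20.7% lower). In BALB/c tumors 7 passed and 2 were called between lines, 1 each way, where 32.6% of 14953 genes were called (16.8% higher, 15.8% lower). In SCID-beige tumors 7 passed and 5 were called between lines, 4 higher and 1 lower, where 32.1% of 14355 genes were called (17.2% higher, 14.8% lower). Between hosts, 1 of 7 was called in D2.1 tumors, where 0.891% of 14929 genes were called (0.871% higher, 0.0201% lower in BALB/c). In D2A1 tumors 1 of 7 was called, where 1.17% of 14572 genes were called (0.906% higher, 0.261% lower). In the interaction 0 of 7 members were called by edgeR, 0 of 8 by DESeq2 and 0 at an unadjusted p under 0.05, where 0.0187% of 16036 genes were called.

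**Figure D4:**
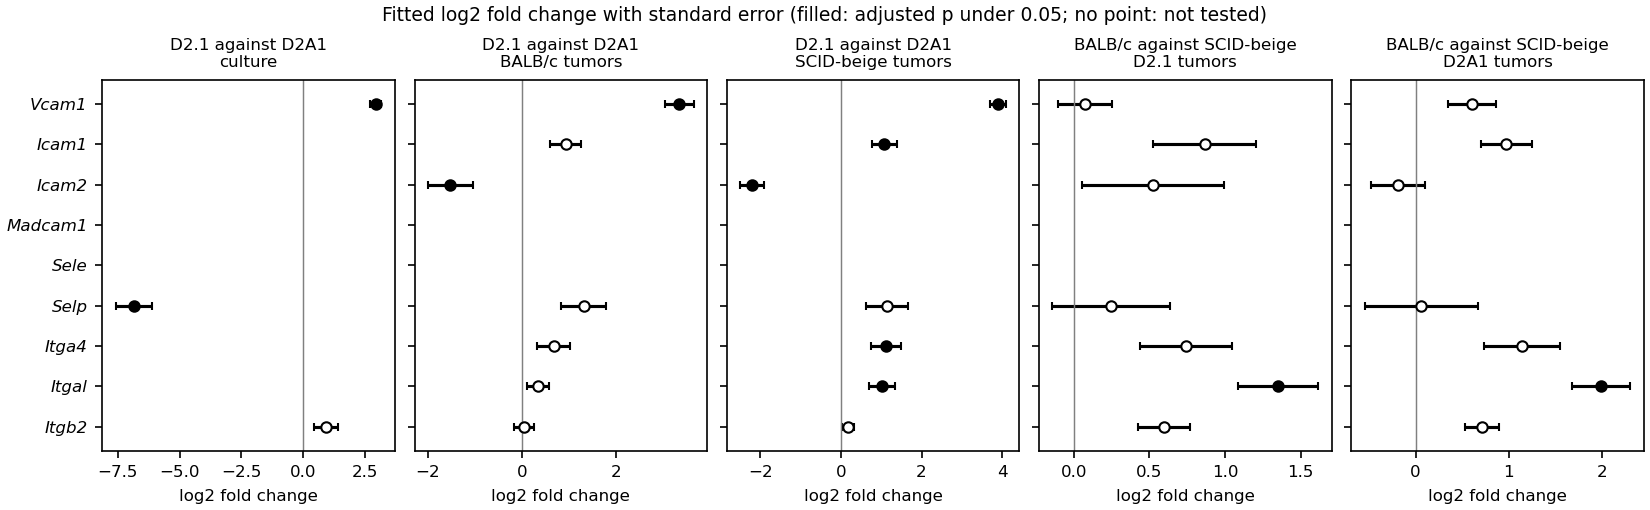
The fitted log2 fold change (x axes) of each member (rows) is plotted with its standard error in 5 comparisons, filled where the edgeR adjusted p is under 0.05 and left out where the member was not tested. Vcam1 stood at 2.94, 3.34 and 3.90 between lines, the Selp values lay on opposite sides in culture and in tumors, and Itgal was the 1 filled point in each host comparison.

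Other genes of the adhesion cascade were counted in 5 lists, to be read against the 32.6%, 32.1% and 44.9% of all genes called between lines in BALB/c tumors, SCID-beige tumors and culture. Among other leukocyte integrin chains, 2 of 6 tested were higher and 2 lower in D2.1 than in D2A1 tumors of BALB/c mice (median log2 fold change 0.21, all genes -0.02). The chain of tissue-resident lymphocytes Itgae differed by 3.29 ± 0.39 (edgeR adjusted p = 0.00015) and Itgb7, a partner of alpha 4, by 1.26 ± 0.40 (edgeR adjusted p = 0.0344). Itgb1, another partner of alpha 4, differed by -0.75 ± 0.14 in SCID-beige mice (edgeR adjusted p = 0.00108). In BALB/c mice the means of Itgb1 were 660 CPM in D2.1 and 1077 CPM in D2A1 tumors. Without D2.1 replicates 1 and 4 the list had 1 higher and 1 lower, where 3350 of 15720 genes were called. In that fit Itgae stood at 3.31 (edgeR adjusted p = 0.00156) and Itgb7 lost its call at 0.96 (edgeR adjusted p = 0.208). In D2.1 tumors both were also higher in BALB/c than in SCID-beige mice, by 1.66 ± 0.31 (edgeR adjusted p = 0.0305) and 2.05 ± 0.37 (edgeR adjusted p = 0.0282). Both calls were lost without these replicates, at 1.69 and 1.76 (edgeR adjusted p = 0.350 and 0.483). Over all genes that fit called 11 of 15672, against 133 of 14929 with these replicates. Of other endothelial adhesion and transmigration genes, 7 of 14 were lower and 2 higher in BALB/c-hosted D2.1 tumors (median -0.63), and 8 of 13 lower and 2 higher in SCID-beige mice (median -1.52, all genes 0.02). Mcam, an adhesion molecule of endothelium and pericytes, differed by -2.45 ± 0.18 (edgeR adjusted p = 6.19e-06) and -2.44 ± 0.24 (edgeR adjusted p = 5.53e-06), and in culture by -2.35 ± 0.35 (edgeR adjusted p = 0.000774).

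Of selectin ligands and the enzymes that make them, 4 of 11 were higher and 0 lower in BALB/c-hosted D2.1 tumors (median 0.69), and 5 of 11 higher and 1 lower in SCID-beige mice (median 1.10). St3gal4, a sialyltransferase, differed by 1.70 ± 0.21 in BALB/c and by 1.53 ± 0.28 in SCID-beige mice (edgeR adjusted p = 0.000175 and 0.000844). In culture St3gal4 ran the other way, at -0.71 ± 0.14 (edgeR adjusted p = 0.00294). Of genes of integrin activation, 5 of 13 were higher and 2 lower between lines in BALB/c mice (median 0.23) and 4 of 13 higher in SCID-beige mice (median 0.29). In BALB/c mice without D2.1 replicates 1 and 4 this came to 2 higher and 0 lower, where 1751 of 15720 genes were called higher and 1599 lower. Skap1, an adaptor of T cells, differed by 4.07 ± 0.42 (edgeR adjusted p = 5.55e-05) and 2.35 ± 0.56 (edgeR adjusted p = 0.00566). It was also higher in cultured D2.1 cells, by 2.96 ± 0.56 (edgeR adjusted p = 0.0026), at means of 0.922 and 0.112 CPM. Of NF-kappaB and interferon regulators, 8 of 21 were higher in BALB/c mice (median 0.66), 9 of 19 in SCID-beige mice (median 0.55) and 11 of 16 in culture (median 0.81), and 0 were lower in each. Ifngr1, a chain of the interferon gamma receptor, differed by 1.62 ± 0.15, 1.80 ± 0.16 and 1.70 ± 0.13 (edgeR adjusted p = 3.17e-05, 1.99e-06 and 1.36e-05).

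**Figure D5:**
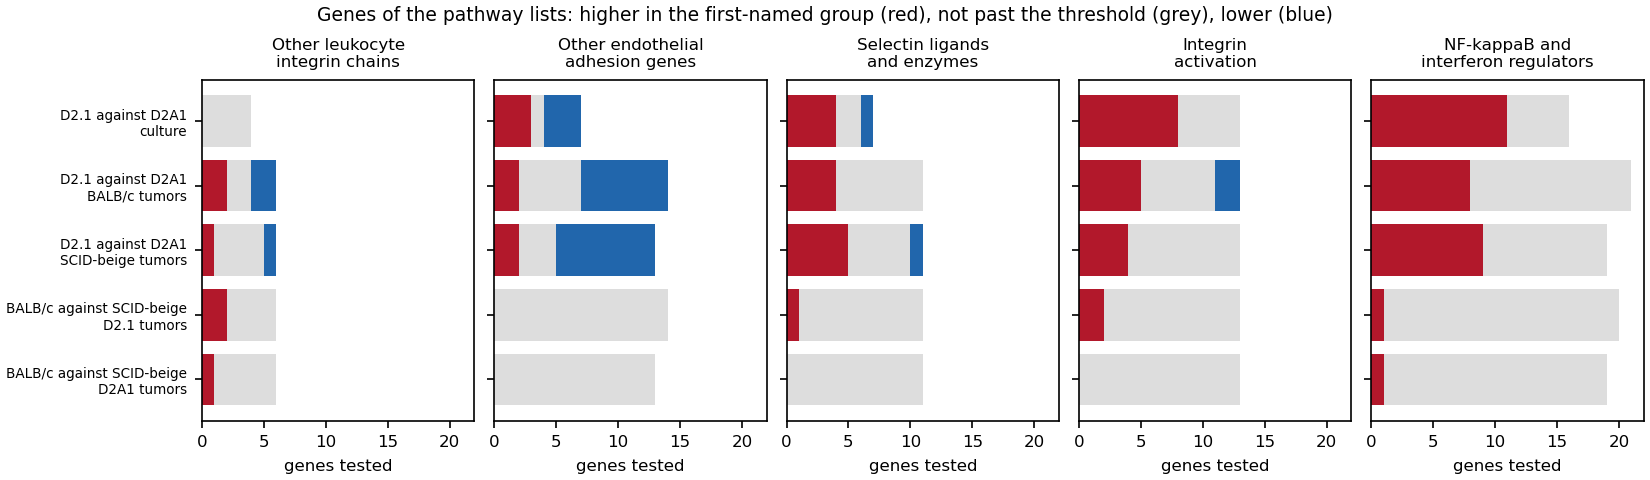
The number of genes tested (x axes) is shown for 5 lists in 5 comparisons, split into genes higher in the first-named group (red), not past the threshold (grey) and lower (blue). Lower genes were most frequent among other endothelial adhesion genes, at 7 of 14 and 8 of 13 between lines in tumors, and 0 NF-kappaB and interferon regulators were lower.

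The genes whose deviations from the group means ran most like those of each member were found over 18 tumors among 13760 protein-coding genes, as a description. For Vcam1 these were Vdr, Naaa and Sumf1 (r = 0.83, 0.80 and 0.80), and for Icam1 Igfbp6, Dnajb5 and Rgs2 (r = 0.87, 0.85 and 0.84). Icam2 ran with Ctu2, Sec11a and Ifitm3 (r = 0.94, 0.93 and 0.93), Selp with Cnksr3, Fhl1 and Lama3 (r = 0.84, 0.81 and 0.81) and Itga4 with Zfp719, Mgat5 and Zfp951 (each r = 0.91). Itgal ran with Il2rb, a cytokine receptor chain of T and NK cells, Mrc2 and Vhl (r = 0.89, 0.88 and 0.86), and Itgb2 with the MHC class II gene H2-Aa, Araf and Clec2d (r = 0.88, 0.88 and 0.86). The tumors differed in depth, at 13566949 to 18355153 counts, and in GC slope, at -0.293 to 0.307, whose part in these correlations was not tested. Among the members, Icam1 and Itgb2 had r = 0.60, Vcam1 and Itgal 0.53 and Icam2 and Itga4 -0.53.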

How the data were processed

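RNA-seq libraries of cultured cells (6) and whole tumors (18) were grouped by their sample labels. The authors deposited raw read counts per gene and FPKM values in separate tables for cells and tumors, aligned with STAR to mm10 per the submitters' processing notes. The counting program, annotation and strand setting are not given in the sources used here. The deposited FPKM equalled counts divided by gene length and library total for 100% of genes within 0.0001, but the gene lengths differed between the tables (median ratio 1.45, equal for 22.6% of 19189 genes), so FPKM was compared only between genes within a table. Identifiers without a match in GENCODE M21 held 0.0969% and 0.0446% of counts.

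Counts were fitted with edgeR 4.0.16 in R 4.3.3 (TMM, default expression filter, robust quasi-likelihood test), over all genes of the groups compared, and adjusted p under 0.05 (Benjamini-Hochberg) was called. Alternatives used DESeq2 1.42.0, other filters, 1 fit of all tumors, a replicate block, and leaving out each library. Fits with each library's GC slope, with that slope and the block, and without D2.1 BALB/c replicates 1 and 4 were added after seeing the data. On simulated data, 95% of 200 genes changed by a log2 of 2 were recovered in culture and 68.5% for the interaction. No library copied another in 38 pairs. Intervals and floors cover counting error only, and p-values measure the spread between these samples. Strand being unknown, reads of overlapping genes cannot be told apart.

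Replicate numbers are shared between groups. The rule was that numbers pair samples where every same-number correlation of deviations exceeds 0.1. This held in culture (0.184 to 0.491). For the lines in BALB/c mice it held over the 14953 genes tested there (0.101 to 0.493) and not over the 16036 genes kept in all tumors (0.0899 to 0.464). The first gene set replaced the second after the calls of the blocked fit had been seen, so both are given and the pairing is treated as undecided.

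The members and lists were chosen with earlier results of these data known, so their calls are a description. Named are the 9 members, the 3 genes with the smallest adjusted p in each pathway list and comparison (of which some are given), markers that moved with a member, and the 3 genes most alike each member. Itgae, Itgb7, Mcam, St3gal4, Skap1 and Ifngr1 were picked from those after their values were seen. Itgb1, Itgb3, Pf4 and Gp9 were likewise named after their values were seen. Some listed genes are not reported here.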

Additional observations from a re-analysis of the deposited data

Results flagged for a closer look

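In 28 groups of 4 or 5 tumors checked over the 7 members that passed the filter, 3 libraries stood far from the rest of their group by Dixon's test, which chance does in about 1 in 20 groups. Vcam1 was at a log2 CPM of 7.208 (148 CPM) in D2A1 replicate 4 of BALB/c mice, where the other 3 tumors were at 61.2 to 68.5 CPM. Selp was at a log2 CPM of 0.4134 (1.21 CPM) in D2.1 replicate 3 of SCID-beige mice, with the others at 3.17 to 4.42 CPM, and the line difference there was 1.35 without it (edgeR adjusted p = 0.0542). Itgb2 was at a log2 CPM of 6.029 (65.2 CPM) in D2.1 replicate 2 of BALB/c mice, with the others at 85.6 to 90.5 CPM.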

How the results depend on the processing

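The Vcam1 line difference kept its direction in every fit and lost its call in 1, the BALB/c fit with the replicate block and the GC slope together (4.15, edgeR adjusted p = 0.105). That fit called 0 of 7 members and 545 of 14953 genes. Of the same genes the fit reported called 4868 (2 members), the block 7116 (4 members) and the GC slope 7088 (4 members). DESeq2 called 4 members and 5790 of 20431 genes. In SCID-beige tumors the block with the slope called 2 members instead of 5, and 2345 of 14355 genes instead of 4607. Between hosts in D2.1 tumors 0 members were called with the block (Itgal adjusted p = 0.141), with the GC slope (0.0520) or without BALB/c replicates 1 and 4. Over all genes these 3 fits called 14, 136 and 11, against 133 in the fit reported. In D2A1 tumors 0 were called with the block (Itgal adjusted p = 0.313), 2 in 1 fit of all tumors, 3 with DESeq2, 3 with the GC slope and 2 with the block and the slope. The block called 0 of all 14572 genes, and the other fits 239, 518, 862 and 322, against 170 in the fit reported. In culture the block changed no member's call, while 7539 of 12489 genes were called with it and 5602 without. Beyond culture and the BALB/c lines the numbers are only shared: same-number correlations were -0.160 to 0.343 between lines in SCID-beige mice and -0.199 to 0.170 and -0.439 to -0.187 between hosts. The cause of these changes was not tested. Leaving out 1 library gave 2 to 3 members called in culture, 1 to 2 between lines in BALB/c mice, 3 to 6 in SCID-beige mice, 0 to 1 and 0 to 2 between hosts in D2.1 and D2A1 tumors, and 0 for the interaction. All genes called in these fits ran, in the same order, from 4375 to 5908, 4074 to 5046, 3969 to 4916, 26 to 314, 27 to 172 and 0 to 12.

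Values that changed sign were uncalled in each fit. With 1 library left out, Itgb2 between lines in BALB/c mice ran from -0.11 to 0.22, Vcam1 in the D2.1 host comparison from -0.032 to 0.18, Icam2 and Selp in that of D2A1 from -0.37 to 0.022 and from -0.58 to 0.52, and in the interaction Icam1 from -0.37 to 0.18, Itgb2 from -0.29 to 0.075 and Selp from -0.30 to 0.80. Without D2.1 BALB/c replicates 1 and 4, Itgb2 between lines was -0.085 and Selp in the interaction -0.034. With the GC slope, Itgb2 between lines was -0.16, and in the D2A1 host comparison Icam2 was 0.052 and Selp -0.37, and Itga4 in the interaction 0.14. With the block and the slope, these last 3 were 0.12, -0.10 and 0.066, and Icam2 in the interaction was -0.039. Relative to Ptprc alone, Itga4 between lines was -0.14 in BALB/c and -0.023 in SCID-beige mice, Itgal -0.42 and -0.21, and Itgb2 between hosts in D2.1 tumors -0.091. Depth limits Madcam1 and Sele, which had at most 26 and 21 reads in a library.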
